A study of Mus musculus with 3 samples.

Results

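The adult ventricle of the mouse heart was compared with the ventricle at E13.5 (E, embryonic day), 1 RNA-seq library each. The compared loci were the protein-coding loci of the deposited table that reached 1 FPKM (sequenced fragments scaled to transcript length and library size) or more in either of these 2 libraries. Of 48626 loci in the table, 20117 were matched to a protein-coding RefSeq transcript, and 12415 of those passed the expression limit. All libraries came from heart ventricle of C57BL/6 mice (C57BL/6 J in the study's methods), with no transgene, mutation or treatment named, at E10.5, E13.5 and, for the adult, 8 weeks of age. Total RNA was sequenced as paired-end reads after a stranded total RNA preparation. Each stage had 1 library, so the differences have no replicate check and no test was possible across stages. How many hearts went into a library is not given in the sources used here, nor is the sex of the animals. The purpose of the study was to find spliced long non-coding RNAs of the developing ventricle. The same libraries also hold levels of protein-coding loci, which are described here.

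Between E13.5 and adulthood the mouse ventricle passes from a growing, dividing muscle that works in low oxygen to a muscle that no longer divides and runs almost entirely on mitochondrial respiration. Cardiomyocytes stop dividing in the first weeks after birth, replace embryonic isoforms of contractile proteins with adult isoforms, build transverse tubules and a large sarcoplasmic reticulum, and change their main fuel from glucose and lactate to fatty acids. The tissue around them changes as well. A dense capillary bed, resident immune cells and a mature matrix are laid down, and red cells made in the yolk sac, which carry embryonic globins, are replaced. In whole ventricle, fewer cells of a type and less RNA per cell cannot be told apart.

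For each locus the level was taken as log2(FPKM + 1), and the difference was the adult level minus the E13.5 level. The median difference over the 12415 loci was -0.51, and each difference is given relative to that median and called the relative difference. A locus was counted as higher in the adult at a relative difference of 2 or more, which is about 4-fold for well expressed loci, and as lower at -2 or less. The added 1 shrinks the differences of low loci.

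Some features of the libraries bear on all of the values. Depth was estimated from the most common low value of FPKM times length in unspliced loci, which was assumed to be a single fragment. By this rough estimate a locus of 1 kb at 1 FPKM rested on about 14 fragments in the adult and E10.5 libraries and 24 in the E13.5 library. This gives counting errors near 27% and 20% and no measure of variation between animals. Exact zeros can be failed estimates. The locus of Ttn, the giant spring protein titin, was listed at 0 in the adult against 46.8 FPKM at E13.5, and the locus joining Myh6 and Myh7, the cardiac myosin heavy chains, was listed at 0 in the adult against 1329 FPKM at E13.5. In all, 70 of the compared loci were listed at 0 in the adult and 33 at E13.5. For such loci no fold is given, and they stay in the counts. Ranks and shares of the summed FPKM are those of the listed values, and would differ if such zeros are failed estimates. The deposited annotation joined more than 1 gene name in 495 of the 12415 loci, which are called joined loci where named. The handling of fragments that map to several places is not given in the sources used here, so levels of genes with many processed copies, such as ribosomal proteins or Gapdh, are uncertain.

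The relative difference also moved with transcript length. Over the 11920 loci of a single gene, its median was -0.80 for transcripts of up to 500 bases and -0.41 for those of 500 to 1000 bases, and it climbed steadily to 0.60 for transcripts over 8000 bases. The difference between E13.5 and E10.5 ran the other way, from 0.59 for the shortest transcripts to -0.64 for the longest. Between the adult and E10.5 the medians stayed between -0.06 and 0.06 in each bin above 500 bases, with -0.43 in the 106 loci of up to 500 bases. The E13.5 library therefore stood apart from both others in the balance of short and long transcripts. The shortest bin held many of the histone loci described below. Of 47 such loci, with a median length of 411 bases, 43 were lower in the adult. List medians are given with a length-adjusted value, the relative difference minus the median of loci in the same of 10 bins of transcript length, and with the adult against E10.5 beside them. The adult library is common to both comparisons, so the second is no independent check. After length adjustment 964 loci were higher and 668 lower, and 825 and 619 of these were also counted without the adjustment. Of the genes named in the results, Acta2, Tagln, Cox6a1, Cox8a, Gamt, Kcnj2, Mfn1, Nkx2-5 and Rpl8 passed the threshold without the adjustment and missed it with it.

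**Figure D1:**
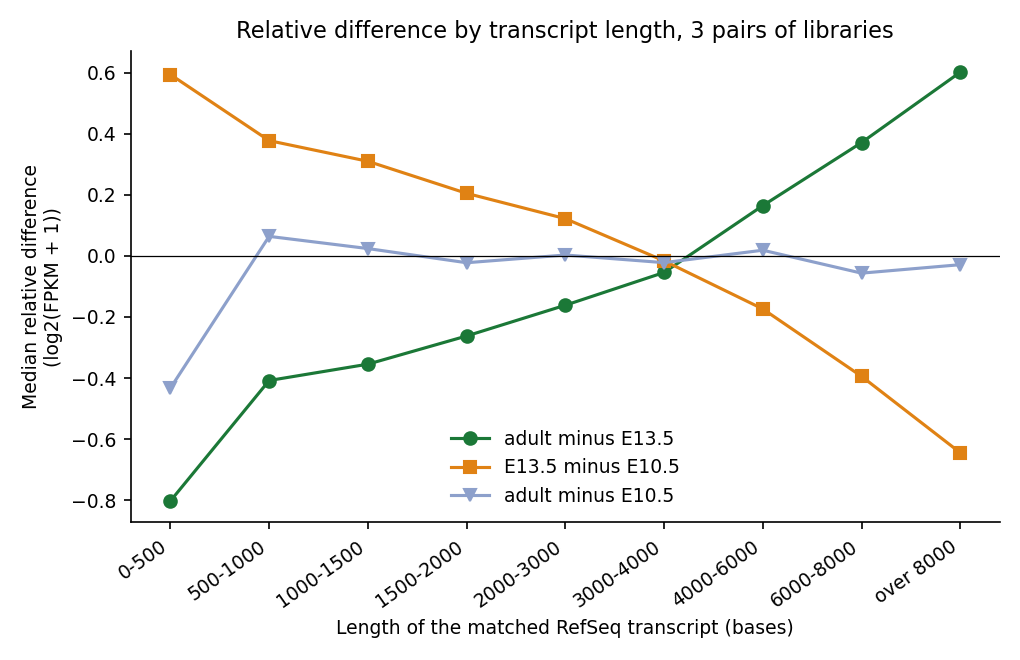
Median relative difference of log2(FPKM + 1) against the length of the matched RefSeq transcript, for the 3 pairs of libraries. Each point is the median of the single-gene loci in 1 length bin. The line for adult minus E13.5 runs from -0.80 to 0.60, the line for E13.5 minus E10.5 from 0.59 to -0.64, and the line for adult minus E10.5 stays near 0 above 500 bases.

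In total, 950 of the 12415 loci (7.65%) were higher in the adult and 721 (5.81%) were lower, while 10744 lay between. Most loci stayed close to the median: 7496 (60.4%) differed from it by less than 1. With the difference taken as deposited and not read against the median, the split turned over, to 554 higher and 1242 lower. With no expression limit it was 635 higher and 1076 lower. At the far ends, 126 loci had a relative difference of 4 or more and 133 of -4 or less. The changed loci held a large part of the message. Those higher in the adult made up 2.71% of the summed FPKM of the compared loci at E13.5 and 23.9% in the adult, and those lower in the adult went from 22.3% to 1.52%. In all 10353 loci were at 1 FPKM or more in both libraries, 807 only in the adult and 1255 only at E13.5. At the threshold, Mapkapk3 (2.002, from 3.76 to 12.4 FPKM) was just counted as higher and Slc20a2 (1.998, from 16.2 to 47.2 FPKM) just missed it.

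**Figure D2:**
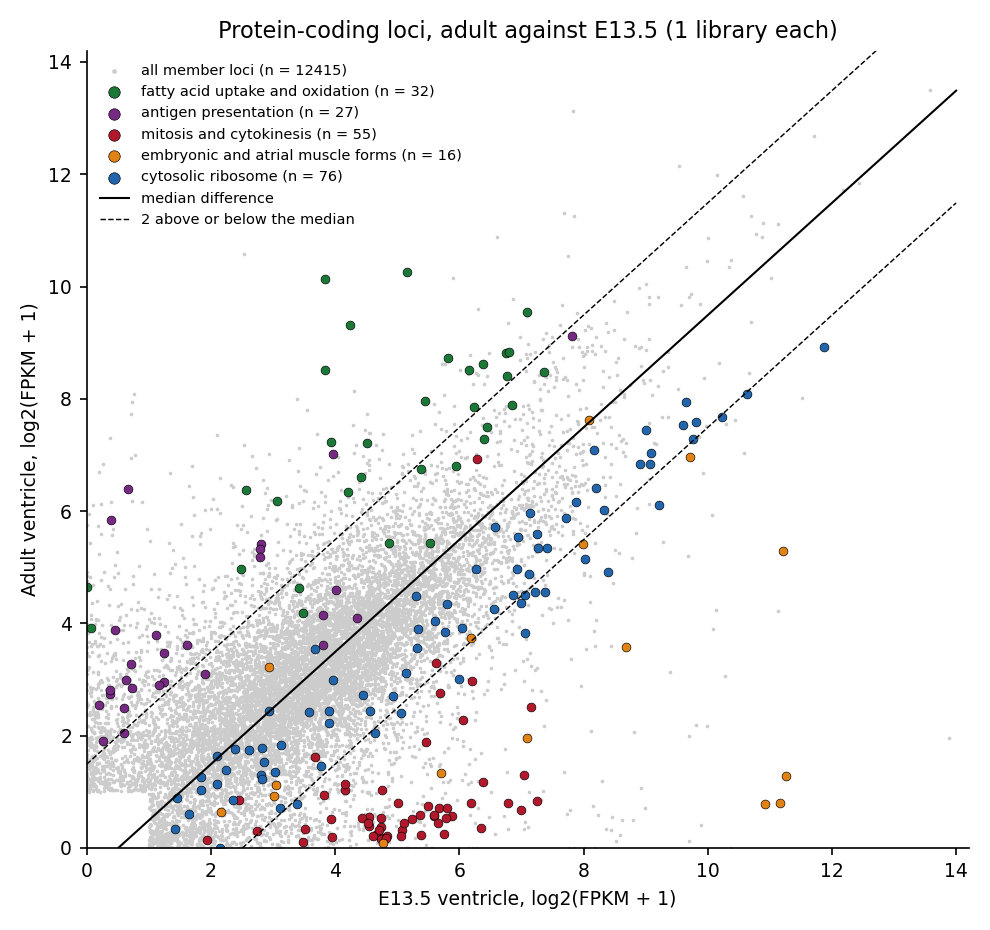
Level of each of the 12415 protein-coding loci in the adult against the level at E13.5, both as log2(FPKM + 1), with 5 gene lists in colour. The solid line is the median difference of -0.51 and the dashed lines lie 2 above and below it. The 32 loci of fatty acid uptake and oxidation all sit above the solid line, and 54 of the 55 mitosis loci sit below it.

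The largest rises joined muscle energetics and structure with secreted proteins. Among single-gene loci at 10 FPKM or more in either library, the top place went to Ckmt2, the mitochondrial creatine kinase of muscle, on chromosome 13 (91853387 to 91876885), at 23.9 FPKM at E10.5, then 4.76 at E13.5 and 1531 in adult tissue, a relative difference of 8.57. Next came Ptgds, a prostaglandin D synthase, from 0.660 FPKM at E13.5 to 245 in the adult, and Myom2, a component of the M-band in the middle of the sarcomere, from 0.636 to 212. The iron carrier binding protein Lcn2 was at 0.298 FPKM at E13.5 and 157 in the adult. Xirp2, an actin binding protein of the intercalated disc, followed from 0.194 to 114 FPKM. Lpl, the enzyme that frees fatty acids from blood lipoproteins, had the highest E13.5 level of the 15 genes, at 13.3 FPKM, and reached 1116 in the adult. The others were Tuba8, Lrrc2, Lrtm1, Lrg1, Plin4, Rpl3l, Itga7, Saa3 and Arg1, with adult levels between 52.0 and 127 FPKM. Of these 15 genes, 12 were lower at E13.5 than at E10.5, and all 15 were higher in the adult than at E10.5. Being low at E13.5 helped a gene into this rank, so the first of these counts is no separate result.

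The largest falls belonged to 3 families and 1 regulator. Hbb-y, an embryonic beta globin on chromosome 7 (103851754 to 103853207), was at 4356 FPKM at E10.5, then 15112 at E13.5 and 2.87 in adult tissue, a relative difference of -11.42. The embryonic globins Hba-x and Hbb-bh1 were at 827 and 366 FPKM at E13.5 and at 0.0946 and 0.0842 FPKM in the adult. The contractile genes Tnni1, Myl7 and Myl4 all stood between 1935 and 2440 FPKM at E13.5 and at most at 1.42 FPKM in the adult. Replication-dependent histone loci took 8 of the 15 places, led by Hist1h4a on chromosome 13, from 954 FPKM at E13.5 to 0.327 in the adult. The remaining gene was Cited1, a transcriptional co-activator, from 393 to 0.403 FPKM.

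**Figure D3:**
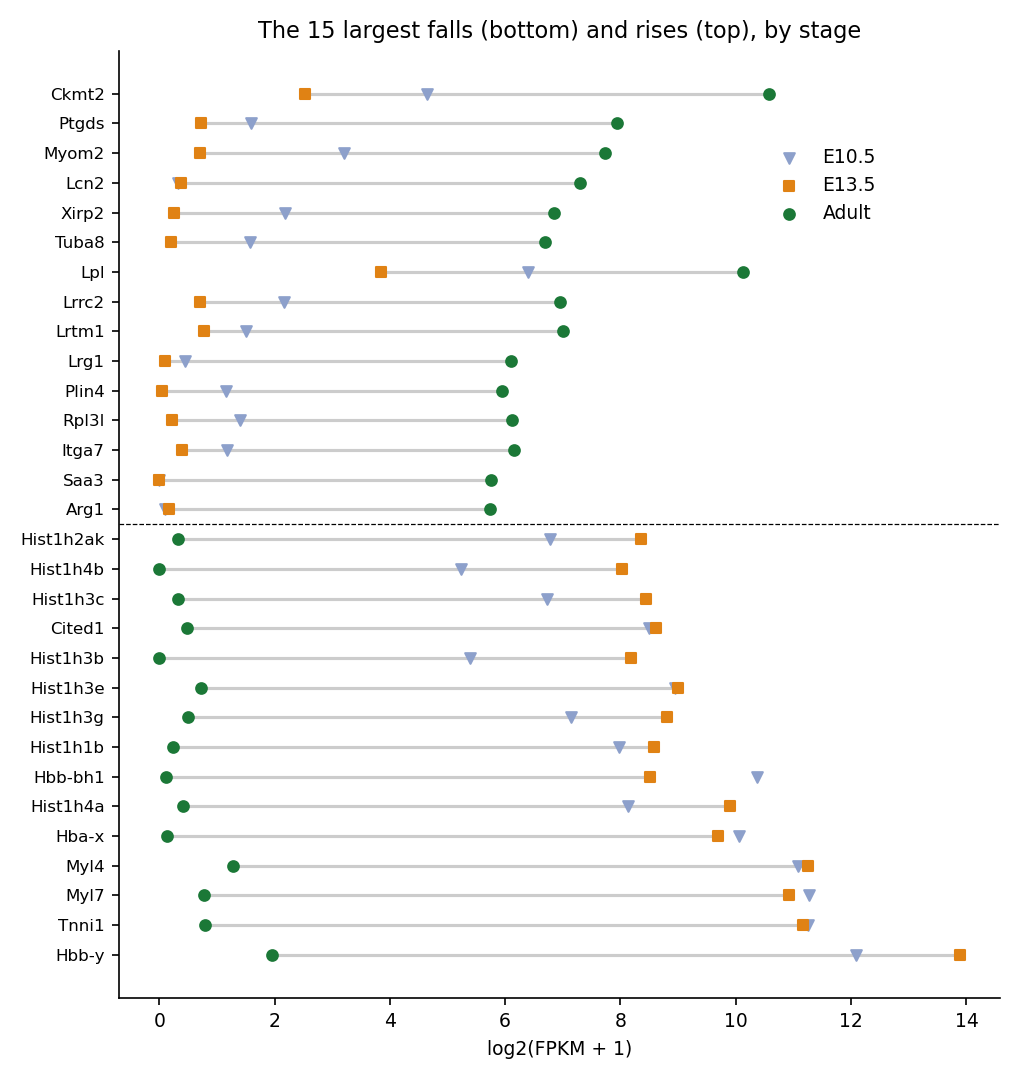
Levels, as log2(FPKM + 1), of the 15 genes with the largest rises and the 15 with the largest falls from E13.5 to the adult, in the E10.5, E13.5 and adult libraries. Each point is 1 library. All 15 rising genes stand higher in the adult than in both embryonic libraries and all 15 falling genes stand lower.

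To describe the programs of maturation, 30 lists of genes were drawn up by function, together with 10 lists of cell type markers. Lists are described by how many members passed the threshold each way and by the median relative difference. These are read beside 7.65% of all loci higher, 5.81% lower and a median of 0. The lists were chosen with earlier results of these data known, so the counts describe the listed genes and are no test. A locus low at E13.5 could not be counted as lower, and a locus low in the adult could not be counted as higher. Lists of fatty acid metabolism, ion transport, immune genes and antioxidant enzymes had medians of 1.65 or more, while those of mitosis, DNA replication, embryonic muscle forms and fetal growth had medians of -2.46 or less.

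**Figure D4:**
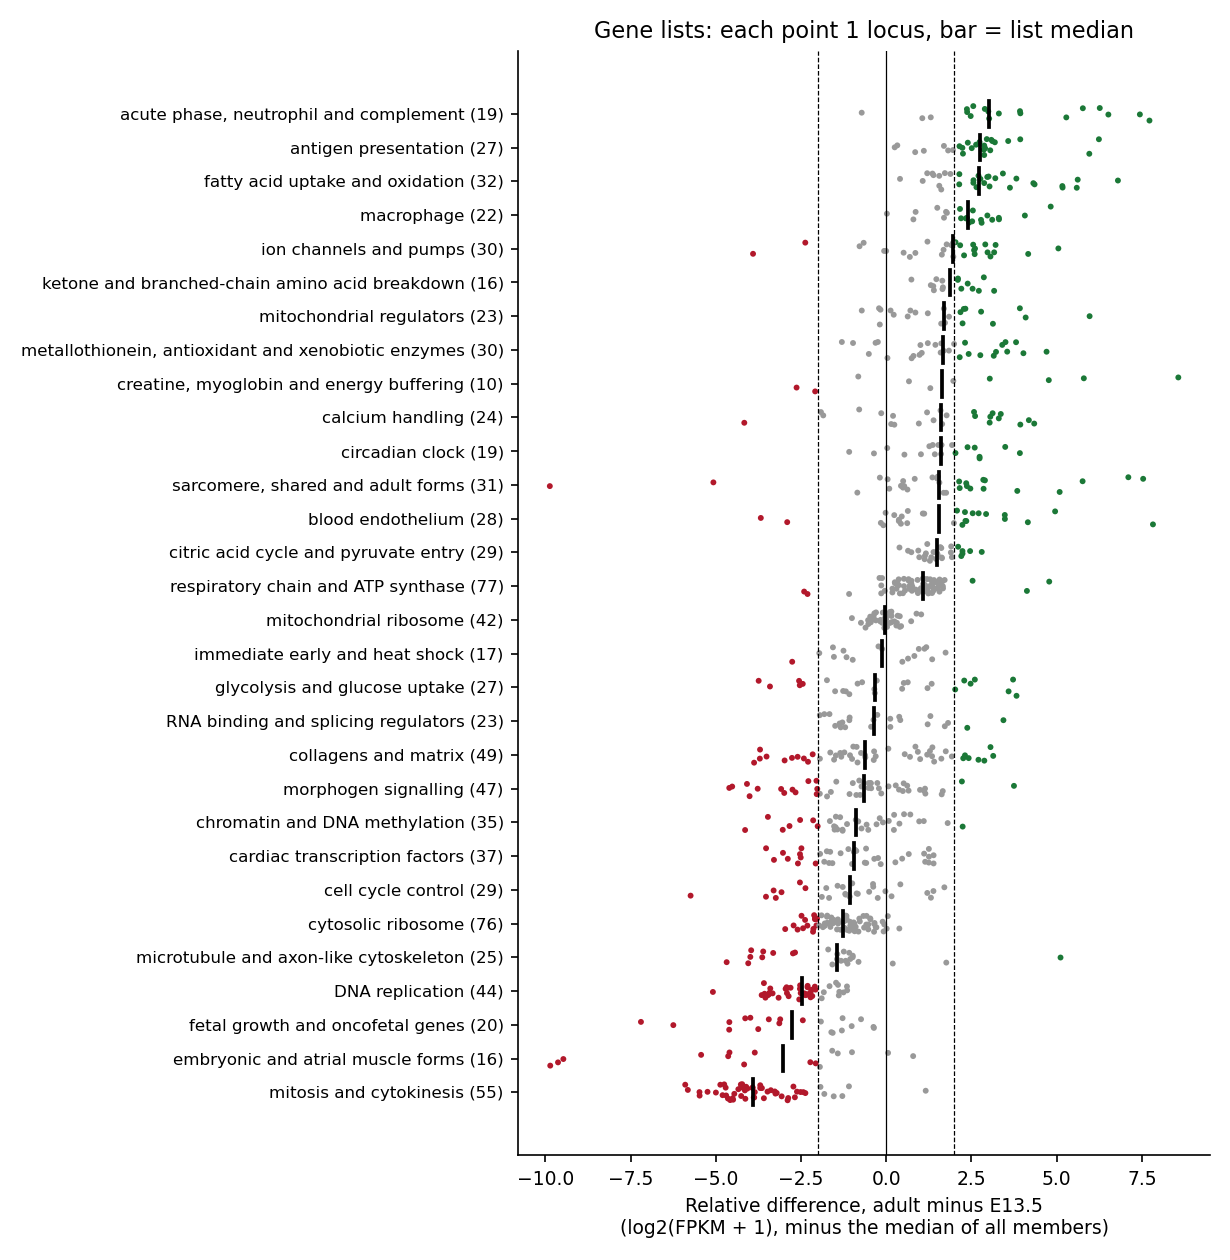
Relative difference, adult minus E13.5 on the log2(FPKM + 1) scale, of each locus in 30 functional gene lists, with the number of loci in parentheses. Points past 2 are green, points past -2 are red and the bar is the list median. Medians run from -3.92 for mitosis and cytokinesis to 3.02 for acute phase, neutrophil and complement genes.

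Contractile genes divided into a stable core and a group of added proteins. Of 31 measured loci in the list of shared and adult sarcomere proteins, 13 were higher in the adult, 2 lower (the joined Myh6 and Myh7 locus and Ttn, both listed at 0 in the adult) and 16 neither, with a median of 1.56. The length-adjusted median was 1.41 and that against E10.5 was 1.78. The list took 7.23% of the summed FPKM at E13.5 and 11.6% in adult tissue. The core of the thin and thick filaments was already high in the embryo. Actc1, the cardiac actin, was at 4487 FPKM at E10.5, then 4646 at E13.5 and 3353 in adult tissue. The joined locus of Myl2, the ventricular regulatory light chain, was the highest protein-coding locus of the adult as listed, at 11568 FPKM, and was at 12217 FPKM at E13.5. The calcium sensor Tnnc1 and the essential light chain Myl3 had relative differences of 0.53 and 0.50. Tropomyosin Tpm1 was at 3343 FPKM at E13.5 and 6601 in adult tissue, a relative difference of 1.49 that fell short of the threshold.

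Proteins of the Z-disc, the M-band and the small heat shock family made up most of those counted as higher. Hspb6, a small heat shock protein of muscle, was at 4.48 FPKM at E10.5, then 3.29 at E13.5 and 162 in adult tissue. Myot, a Z-disc protein that cross-links actin, was at 1.52, 0.0721 and 24.5 FPKM. Mypn, which anchors nebulin family proteins at the Z-disc, was at 2.10, 1.21 and 21.3 FPKM. The list thus held genes nearly silent at E13.5 beside genes such as Myoz2, which binds calcineurin at the Z-disc and went from 135 to 708 FPKM, and Cryab, a chaperone of desmin, from 236 to 739 FPKM.

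Embryonic, atrial and smooth muscle forms went the other way. Of 16 loci, 10 were lower in the adult, none was higher, and the median was -3.04 (length-adjusted -2.68, against E10.5 -2.62). The genes were listed as embryonic, atrial or smooth muscle forms, so the count is a description of these genes. Tnni1, the slow skeletal troponin I, was at 2425 FPKM at E10.5, then 2289 at E13.5 and 0.737 in adult tissue. The light chains of the atria, Myl7 and Myl4, were at 1935 and 2440 FPKM at E13.5 and at 0.719 and 1.42 FPKM in the adult. Nppa, the atrial natriuretic peptide, which embryonic ventricle also makes, was at 1744, 2385 and 37.9 FPKM. Bmp10, a growth factor of the trabeculae, was at 26.2 FPKM at E13.5 and 0.0610 in the adult. Nppb, the related peptide BNP, did not follow, with 271 FPKM at E13.5 and 197 in adult tissue, a relative difference of 0.05. Smooth muscle genes that the embryonic heart muscle also uses were lower as well. Acta2 was at 836 and 124 FPKM, Tagln at 254 and 41.6, and Cnn1 at 136 and 2.87.

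Genes of the same function were set against each other in 28 pairs, an embryonic or general form with an adult or muscle form, of which 27 had both genes in the annotation. Values of FPKM are scaled to length, but the E13.5 library still stood apart in the balance of short and long transcripts. With no length adjustment, the share of the second gene in the sum of a pair is given at each stage. This share was larger in the adult than at E13.5 in 25 of the 27 pairs, and in 14 it passed from under 50% to over 50%. The pairs were chosen for known isoform changes, so the count is a description of these pairs. In troponin I, the share of the joined locus of Tnni3 was 18.01% at E10.5, then 33.2% at E13.5 and 99.98% in adult tissue. The muscle creatine kinase Ckm held 45.7% against the brain form Ckb at E13.5 and 99.4% in adult tissue. The insulin-dependent glucose carrier Slc2a4 held 6.34% against Slc2a1 at E13.5 and 92.5% in the adult.

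Exchanges within the respiratory chain were as large. Cytochrome oxidase has muscle forms of 3 small subunits. Cox8b held 6.54% of its pair with Cox8a at E13.5 and 90.6% in the adult, Cox6a2 held 27.4% and 92.2% against Cox6a1, and Cox7a1 held 29.9% and 86.8% against Cox7a2. In 7 pairs both sides passed the threshold in opposite directions, as in Cox8b from 96.7 to 1883 FPKM and Cox8a from 1383 to 195. With length adjustment Cox8a and Cox6a1 were at -1.885 and -1.98, short of the threshold, and against E10.5 at -1.53 and -1.99. Other pairs changed through only 1 of their genes. For the ventricular light chains it was the loss of Myl7 and Myl4, since the joined locus of Myl2 and that of Myl3 had relative differences of 0.43 and 0.50. For the fibrillins it was the lower Fbn2, from 23.6 to 0.513 FPKM, beside Fbn1 at 26.5 and 27.1 FPKM.

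Some pairs showed the exchange outside muscle proteins. Eef1a2, the elongation factor form of muscle and neurons, held 2.59% of its pair with Eef1a1 at E13.5 and 57.0% in the adult. Ezh1, a histone methyltransferase of non-dividing cells, held 16.9% against Ezh2 at E13.5 and 72.7% in the adult. Among the pairs that did not move were the carnitine palmitoyltransferases, where the joined locus of Cpt1b already held 91.8% at E13.5 and was at 93.3% in the adult. Fkbp1b, which binds the ryanodine receptor, held 0.916% of its pair at E10.5, then 9.96% at E13.5 and 1.298% in adult tissue.

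**Figure D5:**
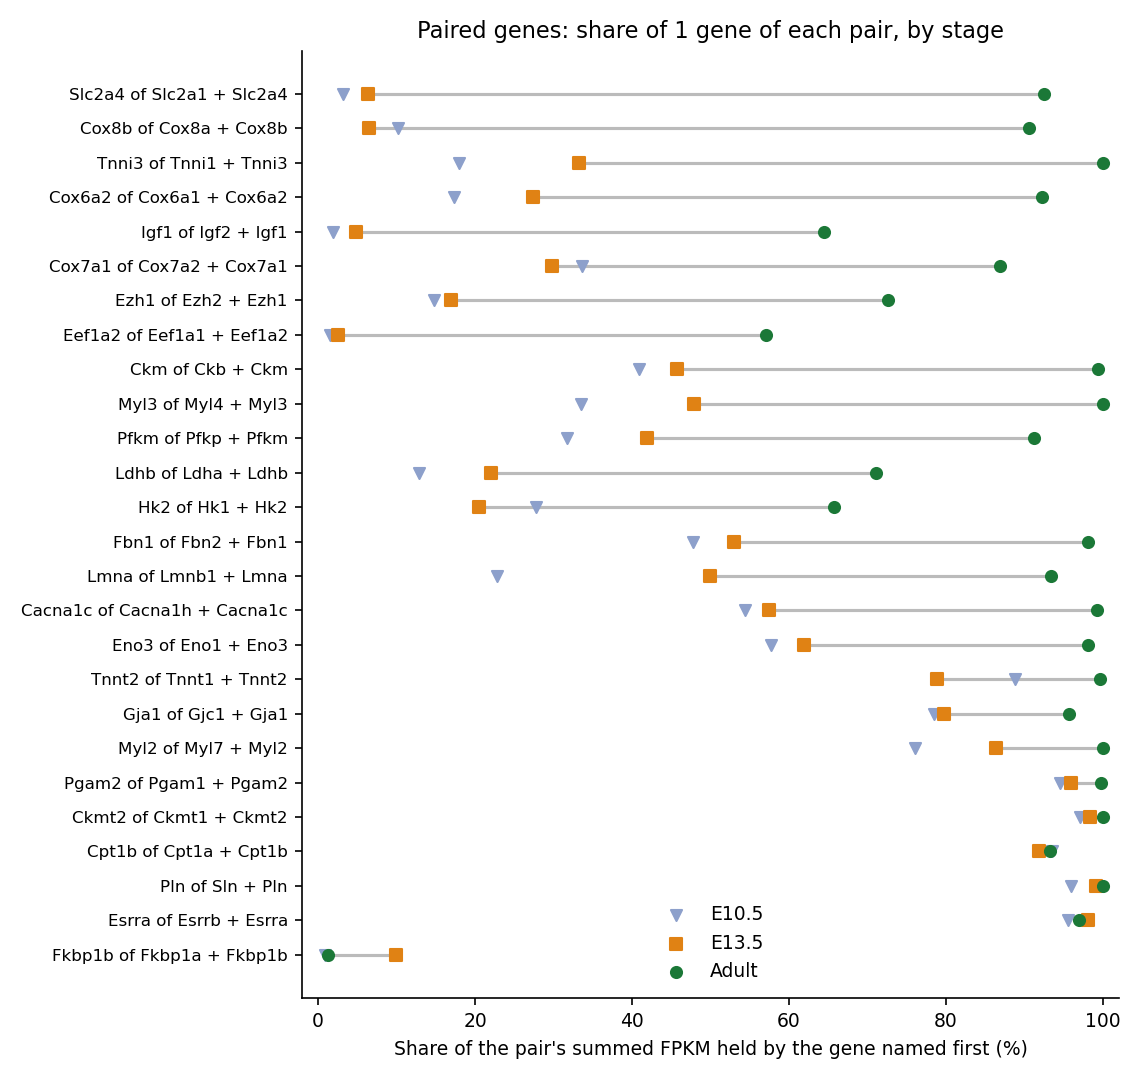
Share of 1 gene in the summed FPKM of its pair, in percent, for 26 of the 27 pairs in the E10.5, E13.5 and adult libraries. Each point is 1 library and the bar joins E13.5 to the adult. This share was larger in the adult in all pairs drawn but 2, those of Esrra and Fkbp1b. Tnni3, Cpt1a, Cpt1b, Myl2 and Esrra stand for joined loci.

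Calcium handling genes, which couple the electrical signal to contraction, were higher in 10 of 24 loci and lower in 1, with a median of 1.62 (length-adjusted 1.36, against E10.5 1.51). The release and uptake machinery of the sarcoplasmic reticulum led. Ryr2, the release channel, was at 73.1 FPKM at E10.5, then 18.8 at E13.5 and 281 in adult tissue. Atp2a2, the pump SERCA2, was at 337, 228 and 2456 FPKM, and its inhibitor Pln, phospholamban, was at 505, 745 and 4551 FPKM. Stores were served by Casq2, the cardiac calsequestrin, at 21.8, 53.5 and 392 FPKM, while Casq1, the skeletal form, was at 94.3, 75.3 and 1.99 FPKM, the single gene counted as lower. The L-type channel Cacna1c was at 8.39 FPKM at E13.5 and 53.7 in the adult. Slc8a1, the sodium-calcium exchanger, was near the median at 101.7 and 78.7 FPKM, and Jph2, which holds transverse tubules to the reticulum, was at 28.3 and 46.1 FPKM.

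Ion channels and pumps were higher in 14 of 30 loci and lower in 2, with a median of 1.96 (length-adjusted 1.995, against E10.5 1.64). Kcnip2, the subunit that shapes the transient outward current, was at 2.74 FPKM at E10.5, then 0.175 at E13.5 and 26.3 in adult tissue. Its channel Kcnd2 was at 1.47 FPKM at E13.5 and 13.4 in adult tissue. The inward rectifier Kcnj2 was at 10.8 and 36.1 FPKM. The lower loci were Gja5, the connexin of the conduction system and the embryonic trabeculae, at 71.2 and 2.38 FPKM, and Kcne1, the partner of Kcnq1, at 12.8 and 0.868 FPKM. Gja1, the main ventricular connexin, was at 107 and 234 FPKM, a relative difference of 1.63.

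Fatty acid uptake and oxidation was the metabolic list with the largest median. All 32 loci lay above the median of all loci, 22 were counted as higher and none as lower, with a median of 2.73 (length-adjusted 2.89, against E10.5 2.96). The list went from 0.369% of the summed FPKM at E13.5 to 2.71% in the adult. Uptake and storage showed the largest values. Lpl was at 82.8 FPKM at E10.5, then 13.3 at E13.5 and 1116 in adult tissue. The joined locus of Cd36, the fatty acid receptor, was at 39.3, 34.7 and 1226 FPKM, and Fabp4, a fatty acid binding protein of capillary endothelium and fat cells, at 12.7, 17.9 and 638. Plin5, which coats lipid droplets, was listed at 0 at E13.5 and was at 24.2 FPKM in the adult. Acsl1, which activates fatty acids with coenzyme A, went from 13.4 to 362 FPKM. Of the enzymes inside the mitochondrion, Acadm, the medium-chain dehydrogenase, was at 81.9, 135 and 745 FPKM, and Hadha, of the trifunctional protein, was at 107 FPKM at E13.5 and 447 in adult tissue. The smallest relative difference was 0.40, of Acads, the short-chain dehydrogenase.

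Enzymes of ketone and branched-chain amino acid breakdown were higher in 8 of 16 loci, all 16 above the median of all loci, with a list median of 1.88 (length-adjusted 2.06, against E10.5 1.61). Oxct1, the enzyme that lets tissues use ketone bodies, was at 136 FPKM at E13.5 and 503 in the adult, and Bdh1, the step before it, at 4.61 and 24.9. The citric acid cycle and pyruvate entry moved as a block of small differences. All 29 loci lay above the median of all loci, but only 6 passed the threshold, and the list median was 1.49 (length-adjusted 1.58, against E10.5 1.63). The largest value was that of Ogdh, the 2-oxoglutarate dehydrogenase, from 69.7 to 345 FPKM.

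Subunits of the respiratory chain and ATP synthase were abundant at both stages. Of 77 loci, 69 lay above the median, 3 were counted as higher and 2 as lower, and the list median was 1.09. Many of these transcripts are short, with a median of 679 bases, and the length adjustment raised the median to 1.39 and the count of higher loci to 7, with none lower. Against E10.5 the median was 1.38 with 14 loci higher. The list took 11.9% of the summed FPKM in the adult, against 5.18% at E10.5 and 6.23% at E13.5. The loci past the threshold were the subunit forms described above, Cox8b, Cox7a1 and Cox6a2 on the higher side and Cox8a and Cox6a1 on the lower. Apart from these, Atp5a1, of the catalytic part of ATP synthase, was at 1341 FPKM at E10.5, then 1656 at E13.5 and 2445 in adult tissue. The mitochondrial ribosome did not share in this. None of its 42 loci passed the threshold in either direction, and the median was -0.04 (length-adjusted 0.25, against E10.5 0.28).

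Glycolysis showed an exchange of genes and no common direction. Of 27 loci, 7 were higher, 5 lower and 15 neither, with a median of -0.33 (length-adjusted -0.28, against E10.5 -0.29). On the lower side were Slc2a1, the general glucose carrier, at 239 FPKM at E10.5, then 142 at E13.5 and 8.41 in adult tissue, Slc16a3, which exports lactate, at 67.4, 65.8 and 2.51, and the general enolase Eno1, at 103 FPKM at E13.5 and 11.4 in the adult. On the higher side were the muscle forms Slc2a4, Eno3 and Pfkm, with the joined locus of Pfkfb2 at 6.50, 4.57 and 50.5 FPKM and Pdk2, which inhibits pyruvate dehydrogenase, at 4.79, 4.11 and 42.1. Aldoa, an aldolase, was the highest of the list at 1293 FPKM at E13.5 and 1296 in adult tissue. The buffers of energy and oxygen held a large share of adult message. Mb, myoglobin, was at 278 FPKM at E10.5, then 228 at E13.5 and 8914 in adult tissue, where it was the second highest locus as listed and took 2.70% of the summed FPKM. With Ckmt2 and Ckm, the 10 loci of creatine and myoglobin metabolism went from 0.131% to 3.61% of the sum, although Gamt, which makes creatine, went from 22.1 to 2.82 FPKM. Of these 10 loci 4 were higher and 2 lower, with a median of 1.63 (length-adjusted 1.5005, against E10.5 1.97). With length adjustment Gamt was at -1.66 and 1 locus stayed lower.

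Regulators of mitochondrial genes were higher in 9 of 23 loci and lower in none, with a median of 1.69 (length-adjusted 1.38, against E10.5 1.36). Perm1, a muscle regulator of mitochondrial content, was at 1.17 FPKM at E10.5, then 0.656 at E13.5 and 71.5 in adult tissue. Ppara, the receptor that turns on fatty acid oxidation genes, was at 1.70, 0.453 and 16.3 FPKM. Thrb, a thyroid hormone receptor, was at 0.403, 0.335 and 7.19, while Thra, the other receptor, was at 44.0 FPKM at E13.5 and 33.5 in adult tissue. The mitofusins Mfn1 and Mfn2 were at 23.1 and 37.6 FPKM at E13.5 and 78.8 and 130 in the adult. Tfam and Nrf1, which serve mitochondrial DNA and nuclear genes of respiration, lay below the median, at -0.19 and -0.72.

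Genes of the cell cycle were lower in the adult. All 44 loci of DNA replication lay below the median and 34 were counted as lower, with a median of -2.46 (length-adjusted -2.49, against E10.5 -2.46). Rrm2, the ribonucleotide reductase subunit of S phase, was at 60.5 FPKM at E10.5, then 77.8 at E13.5 and 0.631 in adult tissue. Helicase subunits Mcm5 and Mcm2 were at 65.7 and 53.0 FPKM at E13.5 and 2.72 and 2.25 in the adult. Pcna, the sliding clamp that also serves repair, kept 14.3 FPKM from 123. In mitosis and cytokinesis, 49 of 55 loci were lower and 54 lay below the median, with a list median of -3.92 (length-adjusted -3.78, against E10.5 -3.76). The list median was 32.9 FPKM at E13.5 and 0.461 in the adult. Ccna2, cyclin A2, was at 114 FPKM at E10.5, then 151 at E13.5 and 0.787 in adult tissue. Ube2c, which marks mitotic proteins for destruction, was at 91.3, 127 and 0.591, and Cdk1, the mitotic kinase, at 57.9, 80.5 and 0.284. The exception was Pttg1, securin, at 76.9 FPKM at E13.5 and 121 in the adult.

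Control genes of the cycle were less uniform, with 7 of 29 loci lower, none higher and a median of -1.07 (length-adjusted -1.07, against E10.5 -1.31). The largest fall of the list was that of an inhibitor. Cdkn1c, the imprinted p57, was at 899 FPKM at E10.5, then 669 at E13.5 and 7.81 in adult tissue. Ccne2 and Ccne1, the cyclins of S phase entry, were at 45.3 and 17.1 FPKM at E13.5 and at 1.82 and 0.507 in the adult. On the other side of the median stood Rb1, the retinoblastoma protein, at 4.43 and 11.4 FPKM, and Cdkn1a, the inhibitor p21, at 2.89 and 6.12 FPKM.

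Histone loci were looked at after their values had been seen. Replication-dependent histone messages carry no poly(A) tail and are seen because total RNA was sequenced. Of 47 single-gene loci named Hist, 43 were lower in the adult, none was higher, and the median was -5.72 with a range from -8.98 to 0.74. Their summed level was 0.0298% of all compared loci in the adult, against 1.36% at E10.5 and 2.67% at E13.5. The transcripts are short, with a median of 411 bases, and the length-adjusted median was -5.29 with 42 lower. Against E10.5 the median was -4.86. In the adult 14 of these loci were listed at 0. The replication-independent variants H3f3a and H3f3b, at 228 and 323 FPKM at E13.5 and 49.2 and 75.1 in the adult, had relative differences of -1.68 and -1.58.

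The promoters of the cell cycle lists were searched for the letters of known cell cycle elements. RefSeq promoters of 300 bases, from 250 before to 50 after a start site, were matched to 9239 of the 11920 single-gene loci by gene and by a start within 1000 bases. The CHR element (TTTGAA on either strand), which DREAM and MuvB complexes read in G2 and M phase genes, was present in 32 of 43 mitosis promoters (74.4%), against 11.6% of the 9239 and 17.9% of all 32851 promoters in the table. The CCAAT box (CCAAT on either strand) was in 33 of these 43 (76.7%), against 38.6% and 37.4%. In the 33 DNA replication promoters, CHR was at 12.1% and CCAAT was in 20 (60.6%), while the 4 searched forms of the E2F site (TTTGGCGC, TTTCCCGC, TTTGCCGC and TTTCGCGC on either strand) were in 11 (33.3%), against 4.35% and 2.26%. These E2F forms were in 3 of the 43 mitosis promoters (6.98%). These are letter matches in a fixed window and do not show that a factor binds.

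The following promoters show these letters in the genes with the largest falls among those whose promoter held every motif named and whose RefSeq start was the deposited start. They are written 5′ to 3′ from RefSeq on GRCm38.p6, 1 for DNA replication with the E2F letters in capitals and 2 for mitosis with the CHR and CCAAT letters in capitals. Cdt1, which licenses replication origins, was at 20.7 FPKM at E10.5, then 21.1 at E13.5 and 0.310 in adult tissue.
Cdt1 (chr8:122567765-122568064, plus strand): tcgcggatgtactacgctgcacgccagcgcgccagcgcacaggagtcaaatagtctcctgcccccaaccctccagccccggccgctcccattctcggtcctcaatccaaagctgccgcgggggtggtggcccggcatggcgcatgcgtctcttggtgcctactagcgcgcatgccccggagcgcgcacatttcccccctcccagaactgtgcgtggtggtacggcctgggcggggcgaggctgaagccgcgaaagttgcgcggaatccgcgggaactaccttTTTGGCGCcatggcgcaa
Ube2c (chr2:164769679-164769978, plus strand): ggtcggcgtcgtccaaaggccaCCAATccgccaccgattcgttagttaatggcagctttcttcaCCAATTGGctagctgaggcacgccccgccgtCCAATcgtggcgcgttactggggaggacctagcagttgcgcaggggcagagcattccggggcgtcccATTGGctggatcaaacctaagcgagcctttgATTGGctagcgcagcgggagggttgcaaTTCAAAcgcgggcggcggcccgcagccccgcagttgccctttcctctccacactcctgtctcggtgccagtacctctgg
Cdk1 (chr10:69352863-69353162, minus strand): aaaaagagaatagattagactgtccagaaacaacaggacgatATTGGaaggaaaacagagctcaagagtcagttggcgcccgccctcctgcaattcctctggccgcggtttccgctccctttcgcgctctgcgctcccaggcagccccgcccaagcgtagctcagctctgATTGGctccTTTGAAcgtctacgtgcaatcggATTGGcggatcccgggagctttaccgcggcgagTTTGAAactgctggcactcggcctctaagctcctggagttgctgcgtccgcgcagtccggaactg
The single match in Cdt1 began 33 bases after the start. Ube2c had 6 CCAAT matches on both strands and 1 CHR match that began 29 bases before the start. Cdk1 had CHR matches that began 71 and 15 bases before the start.

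Promoters of genes higher in the adult were poorer in CpG than those of lower genes and of genes within 1 of the median, but not poorer than all promoters in the table. The ratio of observed to expected CpG was 0.6 or more in 257 of 652 promoters of higher genes (39.4%), 390 of 543 of lower genes (71.8%) and 4481 of 5648 of genes within 1 of the median (79.3%). The share was 73.9% of the 9239 matched promoters and 35.8% of all 32851 in the table. The median ratio was 0.51 for higher genes, 0.74 for lower genes and 0.80 for genes within 1 of the median. It was 0.775 for the 9239 and 0.384 for all promoters. TATAAA on either strand was in 13.96% of higher, 11.4% of lower and 6.27% of the genes within 1 of the median. It was in 7.38% of the 9239 and 13.6% of all promoters. In the fatty acid list 9 of 21 promoters (42.9%) reached the ratio of 0.6, and in the sarcomere list 4 of 21 (19.0%). In the citric acid cycle 20 of 24 (83.3%) did, in the respiratory chain 54 of 64 (84.4%), and in mitosis 42 of 43. AAGGTCA, the site of estrogen-related receptors, was in 3.68% of higher and 1.47% of lower promoters, against 2.72% of the 9239 and 4.72% of all 32851 promoters in the table. It was in 6 of 64 respiratory chain promoters (9.38%), in 3 of 37 of the mitochondrial ribosome (8.11%), in 2 of 24 of the citric acid cycle (8.33%) and in 1 of 21 of the fatty acid list. These list counts are small. TATAAA was in 4 of the 21 sarcomere promoters (19.0%).

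Genes of cytosolic ribosomal proteins lay below the median as a group. Of 76 cytosolic ribosomal protein loci, 15 were lower, none was higher, 73 lay below the median and the list median was -1.26. The transcripts are short, and with length adjustment the median was -0.97 and 6 loci were lower, while against E10.5 it was -0.99 with 5 lower and 3 higher. The list took 3.998% of the summed FPKM at E13.5 and 1.07% in the adult. Rpl8 was at 858 FPKM at E10.5, then 1203 at E13.5 and 203 in adult tissue. Listed levels at E13.5 ran from 1.67 FPKM for Rps29 to 3730 for the joined locus of Rpl41, far wider than the near equal amounts known for ribosomal proteins. Rpl3l, the muscle form of a ribosomal protein, went from 0.169 to 68.8 FPKM, while the joined locus of Rpl3, the general form, went from 132 to 13.2.

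Fetal growth genes, many of them imprinted, were lower in 11 of 20 loci and all 20 lay below the median, with a list median of -2.78 (length-adjusted -2.91, against E10.5 -3.56). Mest was at 2074 FPKM at E10.5, then 833 at E13.5 and 3.0004 in adult tissue. Igf2, the fetal insulin-like growth factor, was at 566, 451 and 3.19 FPKM, and Igf2bp3, which binds its message, at 56.6, 38.1 and 0.127. Gpc3, a surface proteoglycan, was at 139 FPKM at E13.5 and 3.04 in the adult. Igf1, the postnatal factor, was at 22.8 and 5.78 FPKM and was not counted as lower.

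Cardiac transcription factors were lower in 9 of 37 loci and higher in none, with a median of -0.95 (length-adjusted -0.89, against E10.5 -1.09). Factors of the chambers and of the epicardium were among them. Hey2, the Notch target of compact ventricle, was at 43.1 FPKM at E10.5, then 73.2 at E13.5 and 5.38 in adult tissue. Tbx18 and Tcf21, of epicardium and its descendants, were at 28.8 and 22.9 FPKM at E13.5 and 1.83 and 1.79 in the adult. Nkx2-5 was at 61.1 and 9.37 FPKM, a relative difference of -2.07, which was -1.77 with length adjustment and -1.82 against E10.5, both short of the threshold. Others were closer to the median, with Tbx20 at 120 and 44.1 FPKM, Gata4 at 43.0 and 19.5 and Tbx5 at 7.80 and 4.23. Above it were the Mef2 factors and their partners, such as Mef2a at 39.9 and 67.3 FPKM, Tead1 at 11.9 and 22.7 and Myocd at 11.7 and 20.3, with relative differences of 1.25 to 1.39.

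Morphogen pathways were lower in 13 of 47 loci and higher in 2, with a median of -0.66 (length-adjusted -0.72, against E10.5 -0.79). Among the ligands, Bmp7 was at 48.8 FPKM at E10.5, then 42.2 at E13.5 and 0.323 in adult tissue. Of the antagonists, Sfrp2, a secreted Wnt inhibitor, was at 0.5997, 77.8 and 1.28, a peak at E13.5, and Dkk3 was at 34.3, 37.1 and 0.578. Smad6, which blocks BMP signals inside the cell, was at 38.8 FPKM at E13.5 and 0.737 in the adult, and the Wnt receptor Fzd2 at 27.7 and 0.474. The loci that were higher both encode fibroblast growth factors. Fgf1 was at 4.74 and 53.0 FPKM and Fgf16 at 0.0953 and 2.58.

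Matrix genes changed in both directions, with 7 of 49 higher and 10 lower, and a median of -0.61 (length-adjusted -0.67, against E10.5 -0.14). Among the lower loci, Hapln1, which links hyaluronan to versican, was at 127 FPKM at E10.5, then 22.0 at E13.5 and 0.101 in adult tissue, and Col9a1 was at 1.67, 17.97 and 0.0235. Eln, elastin, was at 0.866 FPKM at E10.5, then 87.4 at E13.5 and 6.86 in adult tissue and Postn, periostin, at 25.8, 188 and 18.6, and both were highest at E13.5. Col18a1, a collagen of basement membranes, was at 93.0, 50.1 and 1.74 FPKM and was counted as lower. Among the higher loci, Lama2, the laminin chain of muscle, was at 8.65, 5.48 and 39.0 FPKM, and Dcn, decorin, at 49.5, 75.9 and 351. The fibrillar collagen genes Col3a1, Col1a1 and Col1a2 were between, with relative differences of -0.74, -0.37 and -1.06.

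Blood vessel genes were higher in 13 of 28 loci and lower in 2, with a median of 1.55 (length-adjusted 1.39, against E10.5 1.02). Gpihbp1, which holds lipoprotein lipase on capillary endothelium, was at 0.806 FPKM at E10.5, then 1.02 at E13.5 and 43.0 in adult tissue. The joined locus of Ly6c1, a surface protein of capillary and myeloid cells, was at 6.51, 0.704 and 270, and Aqp1, a water channel, at 7.41, 20.0 and 95.5. General endothelial genes differed among themselves. Pecam1 was at 47.6 FPKM at E13.5 and 72.8 in adult tissue and Tie1 at 28.9 and 18.8, both short of the threshold. Cdh5, the cadherin of endothelial junctions, was counted as higher, at 50.2 FPKM at E10.5, then 12.9 at E13.5 and 47.2 in adult tissue, a relative difference of 2.31 that was 0.29 against E10.5. Npr3, of the embryonic endocardium, was at 50.4 and 1.82 FPKM and Plvap, of fenestrated vessels, at 31.8 and 2.07.

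Immune genes gave the lists with the largest positive medians beside fatty acid oxidation. Of 22 macrophage loci, 15 were higher, none lower and all above the median, with a list median of 2.40 (length-adjusted 2.53, against E10.5 4.07). The list median was 0.919 FPKM at E10.5, then 4.34 at E13.5 and 23.2 in adult tissue. Many of these loci were thus too low at E13.5 to be counted as lower. Complement genes of resident macrophages such as C1qa, at 17.4 FPKM at E13.5 and 42.6 in the adult, differed less than Ccr2, the receptor of cells recruited from blood, at 0.264, 0.270 and 24.2 FPKM. Lyz2, lysozyme, was at 32.5, 43.6 and 244. These are also markers of macrophages, and the part of cell number in the other immune lists was not tested. Antigen presentation and interferon genes were higher in 20 of 27 loci and lower in none, with a median of 2.74 (length-adjusted 2.89, against E10.5 2.87). Class II genes stood out, H2-Aa at 0.875, 0.312 and 56.1 FPKM and the joined locus of Cd74, the invariant chain, at 2.74, 0.586 and 82.96. B2m, the shared chain of class I molecules, was at 138, 224 and 556 FPKM, a relative difference of 1.82.

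Acute phase, neutrophil and complement genes were higher in 16 of 19 measured loci and lower in none, with the largest median of the 30 functional lists, 3.02 (length-adjusted 3.29, against E10.5 3.45). The other genes of the 28 listed missed the expression limit. The median level of the measured loci was 0.298 FPKM at E13.5 and 29.4 in the adult. Most thus passed the limit only through the adult and could not have been counted as lower. With no expression limit the list median was 2.13, under 2.35 for fatty acid uptake and oxidation and 2.31 for antigen presentation. Lcn2, Lrg1 and Serpina3n, secreted proteins of the acute phase, were at 0.298, 0.0760 and 0.335 FPKM at E13.5 and 157, 68.0 and 49.97 in the adult. Saa3, serum amyloid A3, was listed at 0 at both embryonic stages and reached 52.9 FPKM in adult tissue. C3, the central complement protein, was at 0.409 and 37.4 FPKM and Cxcl1, a chemokine for neutrophils, at 0.127 and 11.1. The neutrophil granule genes S100a8 and S100a9 were at 8.46 and 4.52 FPKM at E13.5 and only 15.4 and 7.06 in the adult, short of the threshold. Whether this level of inflammatory message belonged to the adult ventricle in general or to the single adult sample cannot be told apart with 1 library.

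Detoxifying and antioxidant enzymes were higher in 12 of 30 loci and lower in none, with a median of 1.65 (length-adjusted 1.97, against E10.5 2.19). Nqo1, a quinone reductase, was at 3.09 FPKM at E10.5, then 2.32 at E13.5 and 59.6 in adult tissue, and Ephx2, an epoxide hydrolase, at 7.04, 14.3 and 149. The metallothioneins Mt1 and Mt2 were at 51.8 and 12.5 FPKM at E13.5 and 391 and 110 in adult tissue. The general peroxidase Gpx1 did not share this direction, at 343 and 97.0 FPKM. Clock genes were higher in 7 of 19 loci and lower in none, with a median of 1.61 (length-adjusted 1.42, against E10.5 1.57). Their median level at E13.5 was 3.42 FPKM, so many could not have been counted as lower. Nr1d1, a repressor of the clock, was at 2.71, 0.831 and 18.4 FPKM and Dbp, an output factor, at 3.53, 3.65 and 20.8, while Cry1 and Per2 lay within 1.02 of the median. These messages cycle through the day, and the time of sampling is not given in the sources used here. Immediate early and heat shock genes, which respond to handling of tissue, had 1 of 17 loci lower, none higher and a median of -0.12 (length-adjusted 0.07, against E10.5 -0.67), with Fos at 3.70 and 3.58 FPKM and Hspa8 at 341 and 204. The lower locus was Jund, at 30.6 and 2.28 FPKM. With length adjustment 1 locus was higher and 1 lower, and against E10.5 none was either.

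Of the regulators of RNA, 2 of 23 were higher and none lower, with a median of -0.37 (length-adjusted -0.68, against E10.5 -0.95). Both set alternative splicing in mature muscle. Rbfox1 was at 0.865 FPKM at E10.5, then 1.25 at E13.5 and 16.1 in adult tissue, and Mbnl1 at 28.7, 25.5 and 95.6. Srsf7, a splicing factor, was at 123 and 21.5 FPKM, a relative difference of -1.95. Chromatin genes were lower in 7 of 35 loci and higher in 1, with a median of -0.89 (length-adjusted -1.05, against E10.5 -0.75). H2afx, the histone variant of DNA damage signals, was at 52.8, 55.7 and 1.26 FPKM, Lmnb1, lamin B1, at 68.6, 46.9 and 2.03, and Cbx7, a polycomb subunit, at 0.312 FPKM at E13.5 and 3.35 in adult tissue. The cytoskeleton list was lower in 9 of 25 loci and higher in 1, with a median of -1.43 (length-adjusted -1.45, against E10.5 -1.74). Tubb5, a beta tubulin, was at 882, 1074 and 59.6 FPKM and Stmn1, which breaks down microtubules, at 53.9, 164 and 3.52. Tuba4a, an alpha tubulin of muscle, was the higher one, at 11.3, 9.50 and 254 FPKM, and vimentin, Vim, was at 965 FPKM at E13.5 and 101 in adult tissue.

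The labels of tissue and stage were read against marker lists. The 10 cardiomyocyte markers were present in both libraries with a list median of 1329 FPKM at E13.5 and 2682 in the adult. Markers of lung and thymus reached 1 FPKM in neither library (0 of 12), and of 12 fast skeletal muscle markers 3 did, Mylpf being the highest at 8.69 FPKM at E13.5. Of 12 liver markers 7 passed, of which 1 was higher, 1 lower and 6 below the median. Afp, the lower one, had the highest E13.5 level of these, at 10.7 FPKM, and was at 0.022 in the adult. Alb was at 2.20 FPKM at E13.5 and listed at 0 in the adult. Vtn, vitronectin, the higher one, was at 0.106 and 15.6. Of 8 adipose markers only Cidea passed, at 1.13 and 28.2 FPKM, while Adipoq and Plin1 stayed under 1 FPKM. The 14 erythroid loci made up 3.79% of the summed FPKM at E13.5 and 0.0245% in the adult, with 4 lower and 10 neither. Most of the E13.5 share was embryonic globin message, since Hbb-y alone held 3.49%. Besides Hbb-y, the lower loci were the embryonic globins Hba-x and Hbb-bh1 and the gene Slc4a1. Whether the number of red cells differed was not tested, nor was the part of these 14 loci in other differences. Epicardial markers were lower in 4 of 10 loci and all 10 lay below the median, with Upk3b at 43.7 and 1.49 FPKM. Fibroblast markers split, 3 of 9 higher and 2 lower, as did smooth muscle and pericyte markers, 3 of 10 higher and 4 lower, where Myh11 and Rgs5 were higher at 18.1 and 240 FPKM in the adult and the lower loci were Cnn1, Acta2, Tagln and Mcam. With length adjustment the fibroblast counts stayed at 3 and 2, and 3 smooth muscle and pericyte markers were higher and 2 lower. Against E10.5, 5 fibroblast markers were higher and 1 lower, and 3 smooth muscle and pericyte markers were higher and 2 lower. Of 11 nerve and Schwann cell markers, 4 passed and none of these crossed the threshold.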

How the data were processed

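The ventricles of mouse hearts at E10.5, E13.5 and 8 weeks of age were measured by RNA-seq, with 1 library per stage. The authors aligned reads to mm10 with TopHat2 and Bowtie and assembled and quantified loci with Cufflinks, whose other version numbers are not given in the sources used here, and the deposited values are FPKM per locus. Loci were named from the deposited annotation through its nearest RefSeq transcript, and every value column was mapped to a stage (0 columns not mapped).

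Protein-coding loci at 1 FPKM or more in the adult or E13.5 library were kept, a pseudocount of 1 was added before log2, and the median difference was subtracted. With 1 library per stage no test was run, and a threshold of 2 on the relative difference stood in its place. Fragment depth was estimated from the most common low value of FPKM times length in unspliced loci and covers counting error only. The calculation was tested on simulated data. Python 3.11.15, pandas 2.3.3, numpy 2.4.6 and matplotlib 3.10.9 were used.

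The members and gene lists were chosen with earlier results of these data known. Genes named were the 15 largest changes each way among single-gene loci at 10 FPKM or more, up to 5 of the largest changes and 3 of the highest levels in each list, and the genes of the pairs. The other genes named were picked from the lists for their role after their values were seen. Alternatives changed the pseudocount, the filter, the scaling, the threshold, joined loci and zeros, and an adjustment for transcript length was added after the data were seen. Slc25a4 and Ahsp were not analysed here. Some genes of the lists and 1 pair, counted in the totals, are not reported here by name. Promoters were read from RefSeq on GRCm38.p6.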

Additional observations from a re-analysis of the deposited data

How the results depend on the processing

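No paired analysis was possible because there was 1 library for every stage. For the same reason no replicate could be left out. The counts of higher and lower loci were 1433 and 1280 with a pseudocount of 0.1, 554 and 1242 with differences as deposited, 635 and 1076 with no filter, 1256 and 1040 with coding loci scaled to an equal sum, 2702 and 2217 at a threshold of 1, and 331 and 286 at a threshold of 3. The median difference was -0.58 with a pseudocount of 0.1, -0.55 with 0.5, -0.60 with a filter of 5 FPKM, -0.13 with no filter, -0.17 with coding loci scaled to an equal sum, and it turned to 0.0147 with median-of-ratios scaling. Of 396 list medians recomputed, 369 stayed within the list's order-statistic interval and 27 moved beyond it. The sign changed in 9, for the mitochondrial ribosome, the immediate early genes and the liver markers, whose intervals included 0. The interval came from the spread of the genes within a list, which are no replicates. A list of widely spread genes could thus move far and still count as inside. Acute phase genes at 5.06 and erythroid markers at -2.43, both with a pseudocount of 0.1, were such cases, against 3.02 and -1.03 in the main setting. With a pseudocount of 0.1 the medians were -3.01 for DNA replication, -5.46 for mitosis, -1.77 for cell cycle control, 3.38 for antigen presentation and -3.42 for liver markers. With 0.5 they were -4.63 for mitosis and 3.05 for antigen presentation. With a filter of 5 FPKM the morphogen median was -1.76. With no filter they were 1.11 for the citric acid cycle, 0.72 for the respiratory chain, -0.42 for the mitochondrial ribosome, -4.30 for mitosis, -1.61 for the cytosolic ribosome and 2.13 for acute phase genes. Scaled to an equal sum they were -4.92 for mitosis and 3.07 for antigen presentation. As deposited they were 1.37 for ketone and branched-chain amino acid breakdown, 0.98 for the citric acid cycle, 0.57 for the respiratory chain, -0.56 for the mitochondrial ribosome, -2.97 for DNA replication, -4.43 for mitosis, -1.77 for the cytosolic ribosome and -1.12 for matrix genes. With the length adjustment, chosen after seeing the data, they were 1.39, 0.25 and -0.97 for the respiratory chain, the mitochondrial ribosome and the cytosolic ribosome. The cause of these shifts was not tested. Depth limits loci near 1 FPKM, where the estimated counting error alone was about 20% to 27% for a transcript of 1 kb.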

Other observations

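Some gene families, which share a few genes with the lists, were looked at after their values had been seen, and are given as values beside 7.65% of all loci higher and 5.81% lower. Of 16 chemokine loci, which encode signals that draw white blood cells, 12 were higher in the adult and none lower, with a median relative difference of 3.04 (length-adjusted 3.40, against E10.5 2.74). Ccl6 was at 0.473 FPKM at E10.5, then 0.854 at E13.5 and 70.8 in adult tissue, and Ccl9 at 0.227, 1.51 and 42.3. Cxcl5 was listed at 0 at E13.5 and was at 26.1 FPKM in the adult. C-type lectin receptor loci were higher in 7 of 13, with a median of 2.02 (length-adjusted 2.32, against E10.5 2.64), and interleukin and interleukin receptor loci in 8 of 31, with a median of 1.51 (length-adjusted 1.67 with 10 higher, against E10.5 1.48). The median level at E13.5 was 0.801 FPKM for the chemokine loci and 0.921 for the lectin loci. Many of them thus passed the expression limit only through the adult and could not have been counted as lower. In the Asb family, ankyrin proteins that select targets for ubiquitin ligases, 6 of 15 loci were higher and 1 lower, with a median of 1.10 (length-adjusted 1.40, against E10.5 0.63). Asb14 was at 1.26 FPKM at E10.5, then 0.320 at E13.5 and 56.6 in adult tissue, and Asb11 at 2.64, 5.36 and 125.

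The Bex and Maged loci were all lower, 7 of 7, with a median of -4.34 (length-adjusted -3.91, against E10.5 -3.81). Bex1 was at 73.9 FPKM at E10.5, then 131 at E13.5 and 0.267 in adult tissue, Bex4 at 24.7, 159 and 0.807, and Maged2 at 221, 291 and 11.1. General machinery stayed near the median. The 279 zinc finger loci named Zfp had a median of 0.03 with 2 higher and 1 lower, the 28 mediator loci -0.49, the 13 RNA polymerase II subunit loci -0.73 and the 14 aminoacyl tRNA synthetase loci -0.47, with none past the threshold in the last 3 families. Length-adjusted medians of these 4 families lay between -0.37 and -0.05 and those against E10.5 between -0.42 and 0.02. Rock1 and Ss18 were listed at 0 at E13.5, while Rock1 was at 27.98 FPKM at E10.5 and 27.8 in adult tissue and Ss18 at 32.0 and 14.9.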
